A study of Rattus norvegicus with 8 samples.

Results

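Laminins are secreted proteins of the basement membrane, the thin matrix sheet that surrounds each smooth muscle cell of an artery and lies under its endothelium. Each laminin is a trimer of 1 alpha, 1 beta and 1 gamma chain, and a cell binds it mainly through the alpha chain. The mRNA of 9 rat laminin chains was examined in injured and undamaged carotid arteries. They were found by their gene symbols, ignoring case, among the 37209 genes of the count table, and all 9 had a row. They comprise the alpha chains Lama1 to Lama5, the beta chains Lamb1, Lamb2 and Lamb3, and the gamma chain Lamc1. The related gamma chain Lamc3 is not among the 9 and is given beside them.

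The arteries came from male Sprague-Dawley rats with a mean weight of 400 g, whose age is not given in the sources used here. The left carotid artery had its intima injured with a balloon catheter and was harvested 2 weeks later, and the undamaged right carotid artery was the control, with 4 arteries in each group. Whole arteries were sequenced, so that fewer cells of a type and less RNA per cell cannot be told apart. The number of reads counted per artery lay between 13470754 and 15276952 in the controls and between 11459632 and 16658089 in the injured arteries. Levels are given as CPM, read counts brought to a common library size with TMM factors (trimmed mean of M values). A count of 3, taken as the floor of detection, equalled 0.18 to 0.262 CPM of the library totals and covers counting error only. The labels call the right artery a self control but do not tie any injured artery to its own rat or say that the arteries of a group came from separate rats, so p-values measure the spread between these samples.

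The attached extraction text names a brain region, while all other labels name the artery. The 5 brain marker genes summed to at most 2.92 CPM in any library, whereas the 6 markers of contractile smooth muscle summed to 16880 to 48800 CPM in the controls and 10000 to 15610 CPM after injury. Control artery 4 stood apart. Its log2(CPM + 1) values correlated across genes with the other controls at 0.843 to 0.859, against 0.984 to 0.985 among those. Its 6 sympathetic neuron markers summed to 8135 CPM, against 1746 CPM in injured artery 3, 119 CPM in injured artery 1 and at most 7.36 CPM in the rest. Its contractile sum of 16880 CPM was below the 35890 CPM of the next lowest control. Of the 7 laminin chains that could be tested, 6 had their lowest control level in this artery, and values without it are given below. The part that neuronal RNA or smooth muscle content plays in the laminin values was not tested.

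For 8 of the 9 chains, RefSeq gives the DNA before a start of the gene in the rat build GRCr8. The build used for the counts is not given in the sources used here. The 250 bases before the start are shown for Lama3, Lama5, Lamb1 and Lamc1, because these were the 4 chains whose injured arteries lay above all controls. For Lama3 the capitals mark TGANTCA on either strand, the letters bound by AP-1 transcription factors. For the other chains the capitals mark GGGCGG or its reverse complement, the letters of the GC box.
Lama3 (chr18:3952517-3952766, plus strand): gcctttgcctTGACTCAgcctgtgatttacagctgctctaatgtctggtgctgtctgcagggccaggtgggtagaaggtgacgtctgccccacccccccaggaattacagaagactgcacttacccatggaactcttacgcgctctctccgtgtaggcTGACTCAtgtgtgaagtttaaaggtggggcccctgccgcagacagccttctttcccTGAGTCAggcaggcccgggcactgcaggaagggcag
Lama5 (chr3:187695975-187696224, minus strand): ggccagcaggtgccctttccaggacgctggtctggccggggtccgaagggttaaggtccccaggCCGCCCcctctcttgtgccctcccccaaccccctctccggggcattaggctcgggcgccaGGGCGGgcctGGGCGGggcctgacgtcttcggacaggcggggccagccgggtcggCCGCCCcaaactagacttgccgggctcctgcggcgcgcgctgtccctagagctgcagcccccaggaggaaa
Lamb1 (chr6:53562846-53563095, plus strand): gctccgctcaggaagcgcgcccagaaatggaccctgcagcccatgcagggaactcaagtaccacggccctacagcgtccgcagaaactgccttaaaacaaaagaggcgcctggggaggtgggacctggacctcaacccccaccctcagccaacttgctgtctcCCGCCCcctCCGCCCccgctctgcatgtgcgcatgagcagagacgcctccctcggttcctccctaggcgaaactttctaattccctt
Lamc1 (chr13:68051987-68052236, minus strand): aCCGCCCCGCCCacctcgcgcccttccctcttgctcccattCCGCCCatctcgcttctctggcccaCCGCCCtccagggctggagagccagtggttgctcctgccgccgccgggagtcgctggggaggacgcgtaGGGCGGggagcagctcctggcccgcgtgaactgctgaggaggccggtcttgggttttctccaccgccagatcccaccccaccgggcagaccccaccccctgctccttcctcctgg

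Lama3 held TGANTCA 3 times, beginning 240, 92 and 36 bases before the start, and no GGGCGG. Of all 33469 windows of this length in the RefSeq table, 6.34% held TGANTCA at least once and 0.0149%, or 5 windows, held it 3 times or more. Lama3 is known to be transcribed from more than one start. The window shown lies before a start inside the gene, and the counts do not tell its transcripts apart. Lama5 held GGGCGG 4 times, Lamb1 2 times and Lamc1 5 times on either strand, and 30.5% of all windows held at least 1. The bases of these 3 windows were 72.8%, 62% and 71.2% G or C, against a median of 51.2% over all windows. The 5 matches of Lamc1 include overlapping ones. Lama2 held GGGCGG once, Lama1 held none of the 4 motifs searched, and the letters TATAAA were found only in the window of Lama4, among the 8 chains, and in 12.9% of all windows. CCAAT was found in the windows of Lama2 and Lamb3, and in 34% of all windows. These matches are descriptions of letters and not of binding.

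To ask how balloon injury changed the laminins of the artery, the 2 groups were compared gene by gene with the quasi-likelihood test of edgeR. Calls required an adjusted p (Benjamini-Hochberg, over 14359 tested genes) under 0.05 together with a fold change above 2, and SE is the standard error of a log2 fold change. The alpha chain Lama3 was called higher in the injured arteries and was the only one of the 9 chains called. That call ended when the replicate number was added as a block (edgeR adjusted p = 0.0529), though the labels do not pair the arteries. Lama5, Lamb1 and Lamc1, the chains of a widespread vascular laminin, were also higher in every injured artery than in any control, but by less than 2-fold and without passing the adjusted test. Lamb2 and Lama4 lay lower in the injured arteries than in controls 1 to 3 but not than in control 4. In the ratios within each artery, the balance moved from Lamb2 towards Lamb1 and from Lama4 towards Lama5 in all 4 injured arteries. How often the ratios of other gene pairs separate the groups was not examined.

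Of the 9 chains, 7 had enough counts for the test, with at least 116 counts in every library. The 1 called chain of 7 stands beside 10.9% of all tested genes called in either direction, 8.31% called higher and 2.57% called lower. No chain was called lower by edgeR, and none had an unadjusted p under 0.05 in that direction, while 2 did in the other. The share of all tested genes with such a p is not given here, so this and later counts of it have no background. DESeq2 called no chain in either direction. With the adjusted p alone, 1 chain passed, against 17.2% of all genes. In 4 of the 7 chains the injured arteries lay above every control, against 14.2% of all tested genes, and in 0 of the 7 they lay below every control, against 9.51%. The median log2 fold change of the 7 was 0.34, with 4 above 0. That of all 14359 tested genes was -0.06, with 6494 above 0.

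**Figure D1:**
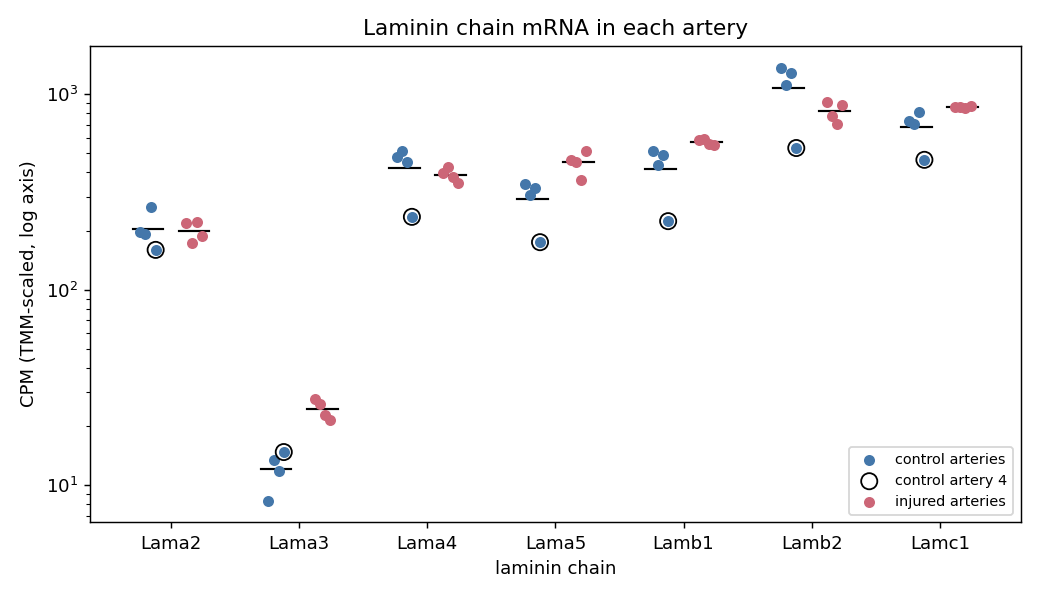
CPM (TMM-scaled, log axis) of the 7 tested laminin chains in each of the 4 control arteries (blue) and the 4 injured arteries (red), with the group mean as a bar and control artery 4 ringed. In Lama3, Lama5, Lamb1 and Lamc1 all injured points lie above all control points, and the ringed artery is the lowest control in 6 of the 7 chains. Heights of different chains are not comparable, because CPM is not divided by transcript length.

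Lama3 encodes the alpha chain of the laminin that anchors epithelial sheets such as the epidermis to the tissue beneath. The 4 controls had 8.36, 13.5, 11.85 and 14.8 CPM of Lama3, and the injured arteries had 27.6, 26.2, 22.9 and 21.6 CPM. The lowest injured artery was thus above the highest control, which was control artery 4. The mean was 12.1 ± 2.79 CPM (SD, n = 4) in the controls and rose to 24.6 ± 2.79 CPM (SD, n = 4) after injury, by 1.02 on the log2 scale (SE 0.20, edgeR adjusted p = 0.0105). The exact permutation test over the 70 relabellings of the arteries gave p = 0.0286, two-sided, the smallest that 4 against 4 allow. The fold of 2.02 sat just past the fold threshold. DESeq2 gave a fold of 2.00 with an adjusted p of 0.000143, and its log2 fold change of 0.997 was just short of it. Leaving out control artery 1, injured artery 1 or injured artery 2 moved the log2 fold change to 0.87, 0.95 and 0.98 and so ended the call, with edgeR adjusted p of 0.0169, 0.034 and 0.0384. Without control artery 4 it was 1.12 (edgeR adjusted p = 0.00386). With the replicate block it was 1.04 and no longer called (edgeR adjusted p = 0.0529).

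Lamb3 is the beta chain that joins Lama3 in the epithelial laminin. It had 2, 7, 6 and 7 counts in the controls and 2, 22, 5 and 0 counts in the injured arteries, too few for the test. A single library, injured artery 2, held 22 of the 29 injured counts. Of the 6 epithelial marker genes, the basal keratins Krt14 and Krt5 had 0 counts and at most 1 count in any library. Epcam, a surface protein of epithelia, had 0, 0, 1 and 21 counts in the controls and 48, 31, 36 and 42 counts after injury. Its injured arteries thus lay above every control, with a log2 fold change of 2.73 (SE 1.08, edgeR adjusted p = 0.128). The epithelial cadherin Cdh1 had 6, 0, 75 and 602 counts in the controls and 108, 58, 727 and 61 counts after injury, most of them in control artery 4 and injured artery 3. Krt8 and Krt18, the remaining markers, overlapped between the groups. Their log2 fold changes were -0.09 (edgeR adjusted p = 0.880) and -0.49 (edgeR adjusted p = 0.374). The 6 markers summed to 13.8 to 50.4 CPM in the controls and 17.3 to 53.6 CPM after injury, and their part in the Lama3 level was not tested. Lama1, the alpha chain of the early embryo and of kidney tubules, had 2, 5, 3 and 5 counts in the controls and 0, 4, 2 and 5 counts in the injured arteries. No difference in Lama1 or Lamb3 was detectable at this depth.

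Lama5 is the alpha chain through which endothelium and many epithelia are anchored. It stood at 349, 307, 331 and 175 CPM in the controls and at 463, 452, 365 and 514 CPM in the injured arteries. The groups did not overlap, with injured artery 3 closest to the controls. The controls averaged 291 ± 78.6 CPM (SD, n = 4) and the injured arteries 449 ± 62 CPM (SD, n = 4), and the log2 fold change was 0.63 (SE 0.23, edgeR adjusted p = 0.101). Without control artery 4 the difference was smaller and its error was smaller too, at 0.44 (SE 0.13, edgeR adjusted p = 0.0349).

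Lama4 encodes a short alpha chain found in the walls of vessels and around muscle and fat cells. The controls had 480.2, 516, 451 and 236 CPM and the injured arteries had 394, 427, 377 and 354 CPM. All 4 injured arteries lay below controls 1 to 3 and above control artery 4. The log2 fold change of -0.12 (SE 0.24, edgeR adjusted p = 0.770) turned to 0.07 when only library totals were used for scaling, which moved the median of all genes up by 0.18. Without control artery 4 it was -0.32 (SE 0.10, edgeR adjusted p = 0.0467).

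Lama2 is the alpha chain of muscle fibres and of Schwann cells. It had 198, 193, 266 and 160.2 CPM in the controls and 219, 174, 224 and 189 CPM in the injured arteries. The highest level was in control artery 3, and the groups overlapped. The means of 204 ± 44.4 CPM (SD, n = 4) and 201 ± 24 CPM (SD, n = 4) differed by less than the spread between arteries, with a log2 fold change of -0.02 (SE 0.17, edgeR adjusted p = 0.946). Its sign changed with the scaling. The 7 Schwann cell markers, of which 1 was at 0 in every library, summed to 309 to 1194 CPM in the controls and 490 to 1672 CPM after injury. Their highest sums were in control artery 3 and in injured artery 3, the arteries with the most Lama2 in their groups. The order did not hold for the other arteries. Control artery 4, with the least Lama2, had a sum of 1103 CPM, and injured artery 4, with 189 CPM of Lama2, had 1151 CPM against 886.5 CPM in injured artery 1. The 6 skeletal muscle markers, 4 of them called higher, summed to 82.8 to 252.5 CPM in the controls and 212 to 824 CPM after injury. The part of either cell type in the Lama2 level was not tested.

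The beta chains had log2 fold changes of opposite sign. Lamb1, the beta chain of most tissues, had 515, 436, 488 and 225 CPM in the controls and 584, 593, 560 and 548 CPM in the injured arteries. Lamb2, the beta chain of mature vessels, kidney glomeruli and nerve-muscle junctions, had 1372, 1111, 1293 and 532 CPM in the controls and 912, 780, 706 and 880.2 CPM in the injured arteries. Lamb1 was thus higher in every injured artery, and Lamb2 was lower than in controls 1 to 3. Neither passed the test over all arteries. The log2 fold change of Lamb1 was 0.46 (SE 0.25, edgeR adjusted p = 0.249), and that of Lamb2 was -0.39 (SE 0.28, edgeR adjusted p = 0.392). Without control artery 4 that of Lamb1 was 0.25 (edgeR adjusted p = 0.0884). Lamb2 then had -0.62 (SE 0.13, edgeR adjusted p = 0.00892), a level of 0.649 times that in controls 1 to 3. The signs of both were kept in all 16 refits with other scalings, filters or tools, a block or an artery left out. Of the 6 contractile smooth muscle markers, 5 were called lower. The 6 markers summed to 35890 to 48800 CPM in controls 1 to 3, 16880 CPM in control artery 4 and 10000 to 15610 CPM after injury. All injured arteries thus lay below control artery 4 in this sum but above it in Lamb2. The part of these markers in the Lamb2 level was not tested.

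Lamc1, the gamma chain shared by most laminins, had 735, 705 and 817 CPM in controls 1 to 3 and 463 CPM in control artery 4. The injured arteries were closely alike at 865, 859, 850.4 and 873 CPM. Their mean of 862 ± 9.61 CPM (SD, n = 4) lay above the control mean of 680.1 ± 152 CPM (SD, n = 4). The log2 fold change was 0.34 (SE 0.18, edgeR adjusted p = 0.249), and 0.19 without control artery 4 (edgeR adjusted p = 0.158).

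Lamc3, a gamma chain of the nervous system and of some epithelia, was called lower in the injured arteries. It had 77.4, 75.0 and 124 CPM in controls 1 to 3, 27.0 CPM in control artery 4, and 30.9, 31.0, 31.4 and 25.9 CPM in the injured arteries. Control artery 4 lay among the injured arteries and the other controls lay far above them. The log2 fold change was -1.35 (SE 0.39, edgeR adjusted p = 0.0476), and without control artery 4 it was -1.63 (SE 0.19, edgeR adjusted p = 0.000802). Each of the other 7 arteries ended the call when left out, with a log2 fold change of -1.01 without control artery 3. DESeq2 called Lamc3 with an adjusted p of 0.00363, while the replicate block ended the edgeR call (edgeR adjusted p = 0.0896).

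**Figure D2:**
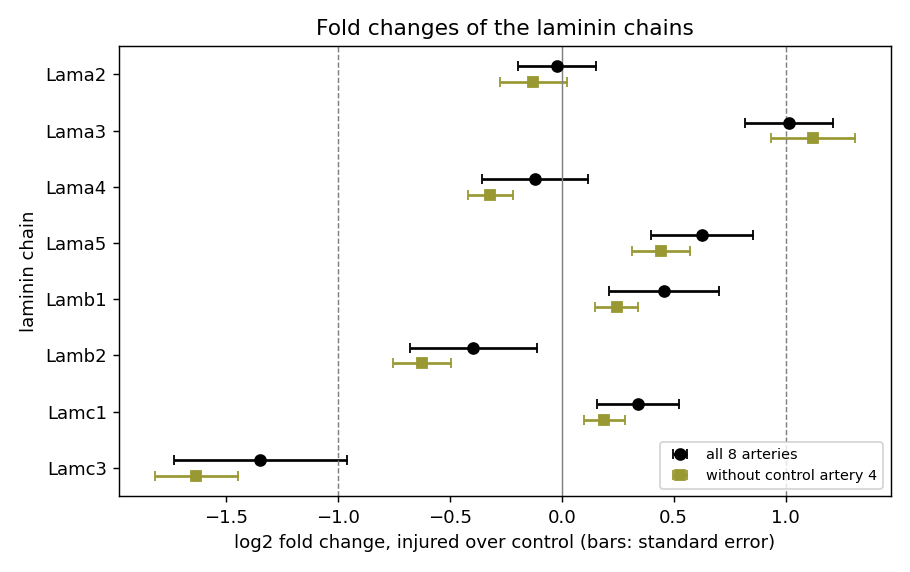
Log2 fold change (injured over control) of the 7 tested laminin chains and of Lamc3, with its standard error, from all 8 arteries (circles) and without control artery 4 (squares), with dashed lines at a fold change of 2. Leaving out control artery 4 moves every chain but Lama3 towards lower values, with Lamb2 going from -0.39 to -0.62, and shortens most error bars.

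Without control artery 4, 4 of the 7 chains passed the adjusted p, against 29.9% of all genes in that fit, namely Lama3, Lama4, Lama5 and Lamb2. These 4 were picked out once their values were known. Only Lama3 was also past the fold threshold, 1 chain of 7 against 16.2% of all genes. The injured arteries lay below controls 1 to 3 in 2 of the 7 chains, Lama4 and Lamb2, against 18.5% of all genes. With library totals only, Lamb2 alone did.

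Because a trimer takes 1 beta and 1 alpha chain, the chains were also set against each other within each artery, where library scaling cancels. The ratio of Lamb1 to Lamb2 counts was 0.376, 0.392, 0.377 and 0.422 in the controls and 0.640, 0.761, 0.793 and 0.623 in the injured arteries. Control artery 4 was here close to the other controls. The mean log2 ratio moved from -1.35 ± 0.0783 (SD, n = 4) to -0.51 ± 0.175 (SD, n = 4), a 1.79-fold rise. The exact two-sided permutation test gave p = 0.0286, the smallest it can give with 4 against 4, and p = 0.0429 after adjustment over the 3 ratios compared. The levels of Lama3, Lama5, Lamb1 and Lamc1 taken singly gave the same p of 0.0286 in that test. Ratios of other gene pairs were not examined. The difference of 0.84 on the log2 scale lay between 0.78 and 0.90 when each artery was left out.

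The ratio of Lama4 to Lama5 counts fell in the injured arteries. It was 1.38, 1.68, 1.36 and 1.35 in the controls and 0.851, 0.945, 1.03 and 0.687 in the injured arteries, so that every injured artery was below every control. The difference in mean log2 ratio was -0.72 (SE 0.15), with p = 0.0286 in the exact permutation test and 0.0429 after adjustment. It lay between -0.81 and -0.61 when each artery was left out. The ratio of Lama5 to Lamc1 was 0.474, 0.435, 0.406 and 0.379 in the controls and 0.535, 0.526, 0.429 and 0.589 after injury. These groups overlapped through injured artery 3, and the difference of 0.29 did not pass the exact permutation test (p = 0.0857, adjusted p = 0.0857). A ratio compares arteries and does not say which chain was more abundant, since transcript lengths were not used. The marker sums of contractile smooth muscle, macrophages and proliferation also separated the groups. The macrophage sums were 136 to 227 CPM in the controls and 1367 to 2201 CPM after injury. The proliferation sums were 7.85 to 15.7 CPM and 71.2 to 113 CPM. Taken singly, 2 of the 6 contractile, 5 of the 6 macrophage and all 5 proliferation markers did not overlap. Of all tested genes, 14.2% lay above every control and 9.51% below. The part of these markers in the ratios was not tested. Of the 7 endothelial markers 2 were called higher and 1 lower, with sums of 816 to 2146 CPM in the controls and 705 to 1001 CPM after injury.

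**Figure D3:**
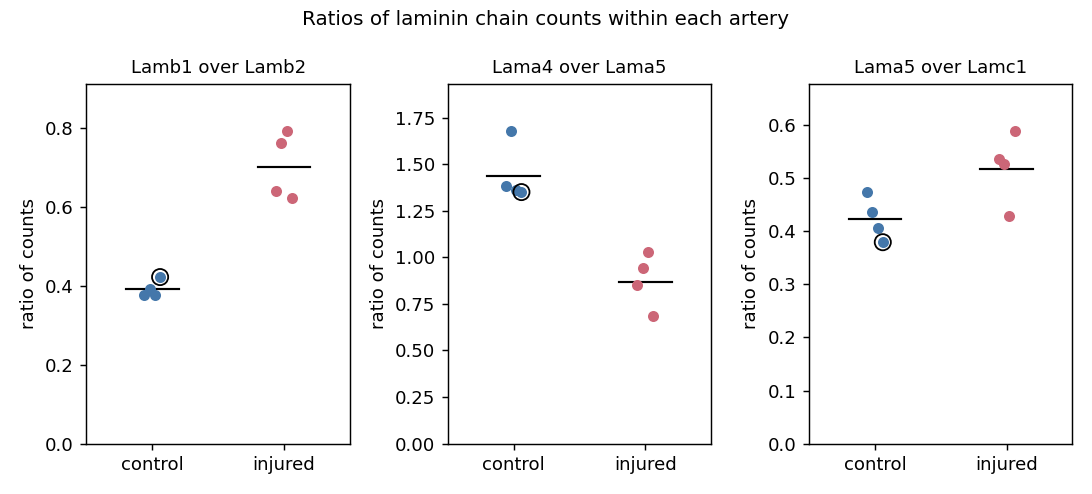
Ratio of the counts of 2 laminin chains within each of the 4 control (blue) and 4 injured (red) arteries, on linear axes from 0, with the geometric mean as a bar and control artery 4 ringed. Lamb1 over Lamb2 is above every control in all injured arteries, Lama4 over Lama5 is below every control in all of them, and Lama5 over Lamc1 overlaps.

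A laminin sheet is held to the cell by integrins and dystroglycan and is tied into the basement membrane by nidogens, agrin and collagen IV. In 6 lists of 40 genes of this kind, Lamc3 included, 38 had a row, 35 could be tested, 3 were called higher and 4 lower in the injured arteries, beside the 8.31% and 2.57% of all tested genes given above. Their median log2 fold change was -0.15, against -0.06 for all tested genes. Dmd (dystrophin) and Egfl6 were listed at 0 in all libraries, as were 592 of the 606 genes that RefSeq places on the X chromosome, against 1541 of 16016 on the autosomes. The values of 0 for these 2 genes are therefore not read as absence. B4gat1 was also listed at 0 under its older symbol, and Hspg2 (perlecan) and Lamb4 had no row.

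None of the 7 laminin receptors was called by edgeR, and 3 had an unadjusted p under 0.05. Itgb1, the beta subunit shared by most laminin-binding integrins, had 1442 ± 352 CPM (SD, n = 4) in the controls and 901 ± 135 CPM (SD, n = 4) after injury (log2 fold change -0.68, edgeR adjusted p = 0.0731). It passed the adjusted p but not the fold threshold without control artery 4, at 928 CPM the lowest control (-0.84, edgeR adjusted p = 0.00307). Itga6, the alpha subunit of the integrins that bind most laminins, had the highest log2 fold change of the list at 1.43 (SE 0.50, edgeR adjusted p = 0.0886). It had 18.3, 29.6, 42.1 and 99.4 CPM in the controls and 116, 86.5, 176 and 132 CPM after injury, and the groups overlapped only through control artery 4. DESeq2 called Itga6 with an adjusted p of 0.0192. Without control artery 4, edgeR called Itga6 (log2 fold change 2.09, edgeR adjusted p = 0.00302). Itgb4, its partner in hemidesmosomes, had 0.89 with all arteries (edgeR adjusted p = 0.363), 0.35 without injured artery 3 (0.699) and 1.59 without control artery 4 (0.0419, called). Its levels were 111, 104, 134 and 408.5 CPM in the controls and 330.5, 128, 674 and 269.9 CPM after injury. They were highest in control artery 4 and injured artery 3, the arteries with the most sympathetic neuron markers. Injured artery 4, with a neuron marker sum of 7.36 CPM, had 269.9 CPM of Itgb4. The 7 Schwann cell markers summed to 406, 309, 1194 and 1103 CPM in the controls and 886.5, 490, 1672 and 1151 CPM in the injured arteries. The part of either cell type in the Itgb4 level was not tested. Bcam is a receptor of the laminin chain Lama5. It was at 796, 657, 632 and 584 CPM in the controls and at 409, 279, 373 and 354 CPM in the injured arteries. These groups did not overlap, and its log2 fold change of -0.92 (SE 0.17, edgeR adjusted p = 0.00788) passed the adjusted p but not the fold threshold.

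In the dystrophin-glycoprotein complex, which links dystroglycan to the cytoskeleton, all 7 tested genes had a log2 fold change below 0 and 1 was called. Of all 14359 tested genes, 6494 had a log2 fold change above 0. Dtna, an adaptor of the complex, stood at 155 ± 30.8 CPM (SD, n = 4) in the controls and fell to 48.6 ± 4.68 CPM (SD, n = 4), by 1.68 on the log2 scale (SE 0.17, edgeR adjusted p = 0.000701). It was called in all 16 refits. Sgcd, a sarcoglycan of smooth muscle, passed the adjusted p with -0.88 (edgeR adjusted p = 0.00658), and Utrn, the homologue of dystrophin, had -0.20 (edgeR adjusted p = 0.540). All 7 passed the adjusted p without control artery 4, against 29.9% of all genes, Utrn with -0.37 (edgeR adjusted p = 0.0145), and Dtna alone was called. The contractile smooth muscle markers were lower in the same arteries, as described for Lamb2, and their part in this group was not tested. Of the 8 enzymes that build the laminin-binding sugar of dystroglycan, 7 were tested and 0 were called by edgeR or DESeq2, with 2 at an unadjusted p under 0.05 in edgeR's test. Their median log2 fold change was -0.14, and the highest was 0.26 for Pomt1.

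Among the basement membrane partners, all 7 tested genes had a log2 fold change above 0 under each scaling, although Col15a1 went to -0.15 without control artery 4. With TMM scaling and all arteries, 6494 of the 14359 tested genes were above 0. Nid2, a nidogen that bridges laminin and collagen IV, had 24.5 ± 14.6 CPM (SD, n = 4) in the controls and rose to 126.5 ± 27.6 CPM (SD, n = 4), by 2.37 on the log2 scale (SE 0.40, edgeR adjusted p = 0.00589). Col4a1, a chain of the collagen IV network, was called with 1.09 (edgeR adjusted p = 0.00968) and fell short of the fold threshold at 0.94 without control artery 4. The replicate block ended its call (edgeR adjusted p = 0.0606). Col4a2 and agrin (Agrn) passed the adjusted p with 0.88 and 0.48, short of the fold threshold. Col18a1 had 0.42 (edgeR adjusted p = 0.440) and Col15a1 had the lowest value, 0.10.

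Of the laminin-related secreted proteins, Smoc2, a matricellular protein of basement membranes, was called higher with a log2 fold change of 2.08 (SE 0.28, edgeR adjusted p = 0.00238). Ntn1, a netrin with laminin-like domains, fell by 1.93 on the log2 scale (SE 0.30, edgeR adjusted p = 0.00449), with 98.7 ± 31.1 CPM (SD, n = 4) in the controls and 25.96 ± 7.56 CPM (SD, n = 4) after injury. Nid2, Smoc2 and Ntn1 were called in all 16 refits. Fbln1, a fibulin that binds laminin and nidogen, was called lower with -1.25 (SE 0.36, edgeR adjusted p = 0.0464). It was no longer called when control artery 1, 2 or 3 or injured artery 2, 3 or 4 was left out, with adjusted p of 0.0947 to 0.131. The replicate block also ended the call of Fbln1 (edgeR adjusted p = 0.116).

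**Figure D4:**
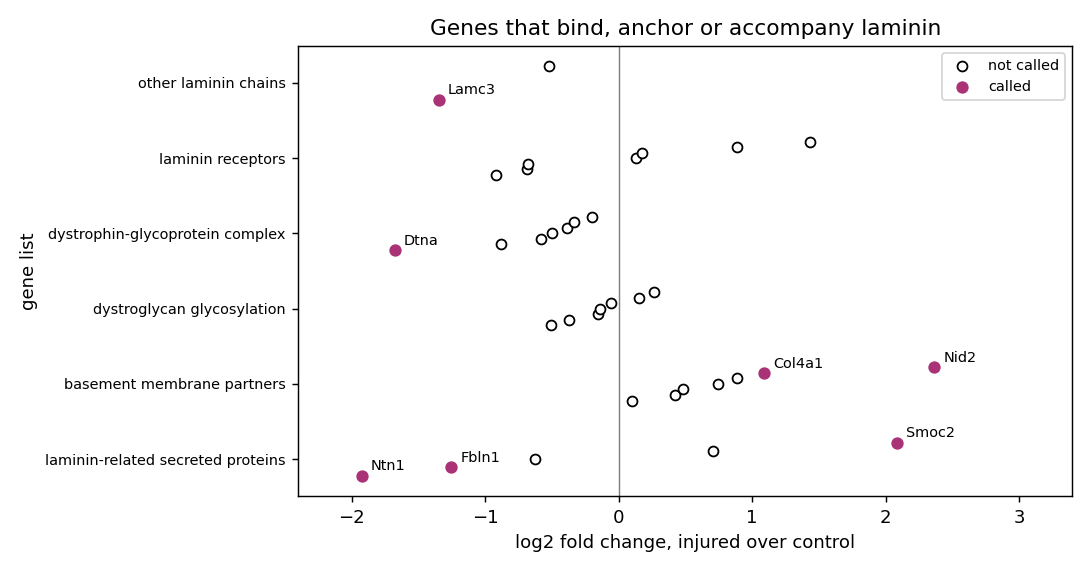
Log2 fold change (injured over control) of the 35 tested genes of 6 lists of laminin chains, receptors and partners, one point per gene, filled and named where called at an adjusted p under 0.05 and a fold change above 2. All 7 basement membrane partners lie above 0, Col15a1 at 0.10 with all 8 arteries and -0.15 without control artery 4, and all 7 genes of the dystrophin-glycoprotein complex lie below 0.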

How the data were processed

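The authors deposited raw read counts per gene symbol for 4 injured and 4 control carotid arteries, without normalization. HISAT2 2.0.4 is named in the submitters' processing notes, whereas the counting tool, genome build, annotation and strand setting are not given in the sources used here, so overlapping genes are uncertain. X-linked genes were nearly all at 0.

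Columns were assigned by label. The analysis was run in R 4.3.3. After filterByExpr of edgeR 4.0.16 had left 14359 genes, libraries were scaled by TMM and compared by the quasi-likelihood test, with no covariate. Standard errors were taken from the F statistic. The called genes met an adjusted p under 0.05 (Benjamini-Hochberg over all tested genes) and a fold change above 2, the study's thresholds. Ratios used counts plus 0.5 and an exact permutation test. Alternatives were DESeq2 1.42.0, other scalings, filters and thresholds, a replicate block, and each artery left out in turn. Leaving out control artery 4 and injured artery 3 together was added after the data were seen. The tests were tested on simulated data. Gene lists were matched by symbol, then by RefSeq synonym (GRCr8). Beside the 9 chains, genes named were those called and, per list, those with the highest CPM and the largest and smallest log2 fold change, others being named after their values were seen. Some genes that this rule picks are not reported here. Members and lists were chosen with earlier results of these data known.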

Additional observations from a re-analysis of the deposited data

Results flagged for a closer look

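In 36 groups of 4 arteries, covering the tested laminin chains, their called partner genes and the 3 ratios, the highest and lowest arteries were examined with Dixon's ratio, the distance to the next artery divided by the group's range, at its 95% critical value. The ratio passed in 5 groups, where chance passes about 1 in 20. Control artery 4 was low for Col4a1, with 804 CPM against 1300 CPM in the nearest control (ratio 0.927), and for Ntn1, with 52.3 CPM against 110.1 CPM (0.886). Control artery 2 was high for the ratio of Lama4 to Lama5, with 1.68 against 1.38 (0.911), on the side away from the injured arteries. Injured artery 4 was low for Lamc3, with 25.9 CPM against 30.9 CPM (0.906), and injured artery 3 for Smoc2, with 135 CPM against 213 CPM (0.904).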

How the results depend on the processing

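The number of laminin chains called, 1, went to 0 with RLE factors and with DESeq2 (2 chains at an unadjusted p under 0.05 in each), with the replicate block (1 such chain) and when tested against a fold change of 2 (0 such chains). It ranged from 0 to 1 with each artery left out. The cause was not tested. The log2 fold change of Lama3 was 1.00 with RLE factors and 0.997 with DESeq2, and ranged from 0.87 to 1.19 (edgeR or DESeq2 adjusted p from 0.000143 to 0.0529) over the 16 alternatives that kept the call's thresholds. With the replicate block it was 1.04, past the fold threshold, and the edgeR adjusted p was 0.0529. The block also ended the calls of Col4a1, Lamc3 and Fbln1 (edgeR adjusted p of 0.0606, 0.0896 and 0.116). The replicate numbers do not pair the arteries by the labels. The correlation, over genes, of how same-numbered arteries departed from the group averages was 0.406, 0.515, -0.612 and -0.464. These values cannot decide the pairing, because departures within a group cancel and an artery that stands apart turns the others the opposite way. The control artery and the injured artery with the most sympathetic neuron markers bear different replicate numbers, which can give such signs with or without pairing. The replicate block gave the same mean difference for each ratio, as it must. Lama2 changed sign with upper-quartile factors (0.042), with library totals only (0.16), under a minimum of 10 counts per sample (0.012) and within a range from -0.13 to 0.13 with each artery left out, and Lama4 with library totals only (0.072). Lama3, Lama5, Lamb1, Lamb2 and Lamc1 kept their signs in all 16.

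Of the pathway genes, 7 were called, 4 with the replicate block, 11 with the adjusted p alone and 4 against a fold change of 2. Over all genes the count of 1562 became 1007 under that minimum, 2468 with the adjusted p alone, 661 against a fold change of 2, and 1142 to 2398 with each artery left out, the highest without control artery 4. It was 2473 without control artery 4 and injured artery 3. Lama1 and Lamb3 are limited by depth.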
